A study of Homo sapiens with 3 samples.

Results

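Target genes of the YAP/TEAD transcription programme, CCN1, CCN2, ANKRD1, AMOTL2, AXL, F3 and NUAK2, were described in single cells of a mesothelioma line. They were chosen by name, and all 7 were among the 36601 genes of the deposited matrix. Every level below comes from the 8913 cells with at least 1000 RNA molecules (unique molecular identifiers, UMIs) and 1000 counts in chromatin peaks, in which mitochondrial genes gave no more than 20% of the UMIs.

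The Hippo pathway is a kinase cascade, with NF2 as an upstream activator and LATS1 and LATS2 as its last kinases, that keeps the coactivators YAP and TAZ out of the nucleus. Where the cascade is lost, as in mesothelioma without NF2, YAP and TAZ bind TEAD factors on DNA and raise a set of target genes. The 7 genes are used across tissues as a readout of that binding, and several also respond to other signals, among them serum factors and AP-1.

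The cells were NCI-H226, a human pleural mesothelioma line that is NF2 null, and CL3, a clone of it made resistant to the TEAD inhibitor GNE7883. CL3 is a single clone, raised in steps of 0.1 to 0.5 µM from 0.25 to 3 µM of inhibitor. Parental cells and CL3 were each given GNE7883 or DMSO, tagged with 4 hashtag oligonucleotides, pooled, and measured for RNA and chromatin accessibility together with the 10x Multiome assay, and the pool gave 3 libraries. The matrix used here holds 0 hashtag features, so a cell could not be placed in a treatment or a line: the pool is 1 sample, no treatment was compared, and no p-value is given. All intervals are 95% and cover counting error only.

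The cells held a median of 1524 UMIs (1000 to 13064) and 4034 peak counts, and 16588148 UMIs in all. Of 11130 barcodes that passed both count minimums, 2217 had over 20% mitochondrial UMIs and were set aside. Of 13 mesothelial markers, 10 reached 20 CPM (UMIs scaled to a library of 1000000), with a summed level of 9989 CPM, whereas 10 immune markers summed to 11.3 CPM and 3 of them had 0 UMIs. Most of the mesothelial sum came from the keratins KRT18, KRT8 and KRT19, at 4153, 2517 and 1742 CPM. CALB2 was at 771 CPM, MSLN at 79.0 and WT1 at 68.4, and KRT5, ITLN1 and HP stayed under 20 CPM. The 7 endothelial markers summed to 27.5 CPM and 9 fibroblast and smooth muscle markers to 266 CPM.

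TEAD factors recognise the core letters GGAATG, or CATTCC on the other strand. Shown are the 250 bases before the start of CCN2, ANKRD1 and NUAK2, which hold 2 or more cores each, and of F3, which holds none. Capitals mark GGAATG or CATTCC, and also TGANTCA, the letters of an AP-1 site. The windows are chr6:131951373-131951622, chr10:90921088-90921337, chr1:205321746-205321995 and chr1:94541760-94542009, all on the minus strand of GRCh38.p14, from RefSeq.
CCN2: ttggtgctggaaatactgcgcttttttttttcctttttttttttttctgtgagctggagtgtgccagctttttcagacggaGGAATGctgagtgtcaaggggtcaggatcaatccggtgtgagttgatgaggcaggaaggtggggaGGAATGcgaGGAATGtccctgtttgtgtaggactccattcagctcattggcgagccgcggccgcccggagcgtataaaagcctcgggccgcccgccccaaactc
ANKRD1: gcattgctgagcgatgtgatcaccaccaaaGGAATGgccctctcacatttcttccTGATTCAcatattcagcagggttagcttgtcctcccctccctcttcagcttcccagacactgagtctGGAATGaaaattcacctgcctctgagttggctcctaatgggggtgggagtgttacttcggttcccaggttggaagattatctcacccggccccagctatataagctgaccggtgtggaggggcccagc
NUAK2: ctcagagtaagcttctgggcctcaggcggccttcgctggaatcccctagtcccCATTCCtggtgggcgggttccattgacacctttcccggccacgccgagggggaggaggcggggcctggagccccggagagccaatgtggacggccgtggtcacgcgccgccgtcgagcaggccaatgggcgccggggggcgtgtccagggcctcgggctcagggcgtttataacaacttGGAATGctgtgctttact
F3: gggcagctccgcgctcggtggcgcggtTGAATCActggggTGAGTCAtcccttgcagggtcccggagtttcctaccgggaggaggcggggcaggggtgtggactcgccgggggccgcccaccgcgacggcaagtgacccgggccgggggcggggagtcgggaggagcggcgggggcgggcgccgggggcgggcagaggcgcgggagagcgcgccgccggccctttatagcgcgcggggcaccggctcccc
The CCN2 window held 3 cores, at 169 to 164, 104 to 99 and 95 to 90 bases before the start. ANKRD1 held 2 cores and 1 AP-1 site, NUAK2 2 cores and F3 2 AP-1 sites. In all, 6 of the 7 genes had a window. CCN1 had none in the sequences used, so its start was not searched. Of the 8 windows, 5 held a core, against 11.9% of 35116 windows of the same length. Windows with 2 or more cores made up 0.940% of all, those with 3 or more 0.0826%, and those with an AP-1 site 6.57%. These are matches of letters, searched on both strands, and do not show binding.

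The secreted matricellular protein CCN1 (ENSG00000142871) was by far the most abundant of the 7. Its level was 287 CPM (278.8 to 295.2), rank 420 among all genes. The receptor tyrosine kinase AXL (ENSG00000167601), a receptor for GAS6, followed at 114 CPM (109.1 to 119.4). AMOTL2 (ENSG00000114019), a junction scaffold that binds YAP, was at 46.0 CPM (42.8 to 49.4), and F3 (ENSG00000117525), tissue factor, the starter of coagulation, at 42.0 CPM (38.9 to 45.2). The intervals of AMOTL2 and F3 overlapped, so their order was not settled. NUAK2 (ENSG00000163545), a kinase of the AMPK family, was at 15.0 CPM (13.2 to 16.9), and the matricellular CCN2 (ENSG00000118523) at 14.7 CPM (12.9 to 16.7). The nuclear ankyrin repeat protein ANKRD1 (ENSG00000148677) was lowest, at 4.10 CPM (3.18 to 5.197) and 68 UMIs in all. Only 4 of the 7 reached 20 CPM, the level that 6575 genes reached.

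Divided by the length of the gene on RefSeq, the level was 89.9 CPM per kb for CCN1, 4.60 for CCN2, 3.33 for F3, 2.68 for AXL, 2.29 for AMOTL2, 0.760 for NUAK2 and 0.456 for ANKRD1. On that scale CCN2 came second, since CCN2 is 3197 bases long and AXL 42544. The length is that of the whole gene, and whether UMIs rise with it was not tested. CCN1 led on both scales.

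CCN1 was found in 37.0% of cells, and 986 cells held 2 or more of its UMIs. AXL was found in 18.0%, AMOTL2 in 7.95%, F3 in 7.18%, NUAK2 in 2.69%, CCN2 in 2.59% and ANKRD1 in 0.718%. Each cell was then thinned at random to 1000 UMIs, so that depth no longer differed. The share was then 24.03% for CCN1 (23.1 to 24.9), 10.2% for AXL, 4.48% for AMOTL2, 4.02% for F3, 1.503% for NUAK2, 1.37% for CCN2 and 0.449% for ANKRD1.

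RNA that leaks from broken cells gives UMIs in droplets whether or not the cell expresses the gene. It was read from 410946 barcodes with 1 to 9 UMIs and under 100 peak counts, which held 728191 UMIs, a set chosen after seeing the data because the one first planned held few UMIs. A draw of 1000 UMIs from that RNA would find CCN1 in 23.6% of cells, AXL in 7.53%, AMOTL2 in 3.11%, F3 in 3.24%, NUAK2 in 1.09%, CCN2 in 1.23% and ANKRD1 in 0.684%. For AXL, AMOTL2, F3 and NUAK2 the measured share was above the value from this RNA, whose own counting error is not included. For CCN2 the interval of the measured share (1.14 to 1.63) held that value. For ANKRD1 the interval (0.321 to 0.611) lay below it, where the free RNA held 5 UMIs of the gene. For CCN1 the measured share, 24.03%, lay at the level of this RNA. The draw takes every UMI of a cell as free RNA, and that RNA comes from the same pool. A gene expressed evenly across the cells would give a like share, so the match does not tell free RNA from expression. How many cells express CCN1 cannot be read from it. AXL was at 78.3 CPM (59.3 to 101.4) in these barcodes, below its level in cells. For the other 6 genes the interval in these barcodes held the level in cells, as for AMOTL2 at 31.6 CPM (20.02 to 47.4). Yet AMOTL2, at 46.0 CPM in cells, lay lower in these barcodes by a like proportion, on 23 UMIs against 57 for AXL. A lower level there was thus not particular to AXL. Over all genes at 20 CPM or more, the ratio of these barcodes to cells had a median of 0.765. The planned set, 1211 barcodes with 10 to 100 UMIs and under 100 peak counts, held 17 CCN1 UMIs, 3 of AXL and 0 of ANKRD1 and of NUAK2. There AXL was at 47.4 CPM (9.78 to 138.6), which holds its level in cells, and would be found in 4.63% of cells.

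**Figure D1:**
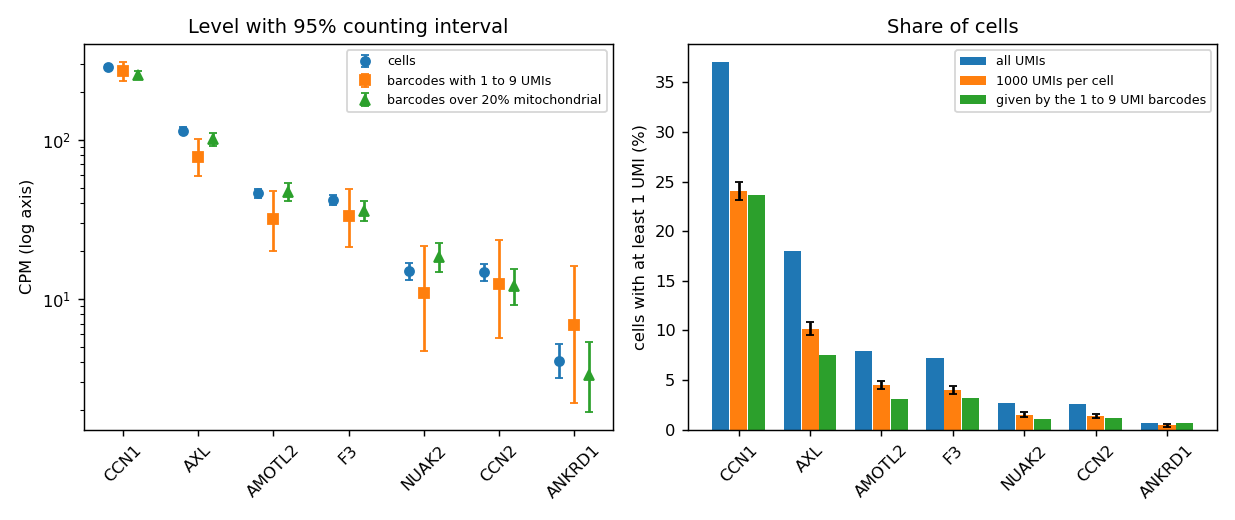
Level of each gene (left, CPM, log axis) in cells, in barcodes with 1 to 9 UMIs and in barcodes over 20% mitochondrial, and share of cells with at least 1 UMI (right), with bars for 95% counting intervals. The share of CCN1 at 1000 UMIs per cell, 24.03%, stands beside the 23.6% that the 1 to 9 UMI barcodes give.

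Barcodes set aside for mitochondrial RNA had much the same order. There CCN1 was at 254.9 CPM (241.2 to 269.2), under its level in cells, and AXL at 100.3 CPM (91.8 to 109.4), whose upper bound lay just above the 109.1 CPM lower bound in cells. CPM counts mitochondrial UMIs, for which these barcodes were selected, so a lower CPM of other genes is partly built in. The size of that part was not measured. In the thinned cells, the variance of counts per cell over their mean, 1 for a random spread, was 1.07 for CCN1. It was 1.01 for AXL, 1.01 for F3, 1.02 for AMOTL2, 1.02 for CCN2, 1.03 for NUAK2 and 1.14 for ANKRD1. The median over genes at 20 CPM or more was 1.01. CCN1 lay above that median, with 44 cells at 3 or more UMIs. No interval was computed, and for genes with few UMIs this ratio tends to lie near 1. A random spread is therefore not shown. The value for ANKRD1 rests on 42 UMIs, of which 3 lay in 1 cell.

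Clusters were drawn from the chromatin peaks alone, with no RNA, and RNA was then compared between them. They held 2576, 2413, 1755, 1399, 646 and 124 cells (clusters 1 to 6). The genes with the largest ratios, named after their values were seen, were CYP17A1 and CHI3L1 in cluster 1, IL1RAPL1 and SAMD3 in cluster 2, CLSTN2 and REC114 in cluster 3, PPP2R2B and ADGRL3 in cluster 4, INHBA and IGFBP5 in cluster 5, and ZNF627 in cluster 6. No cluster is matched to a line or treatment. A call needs a level at least 1.5-fold from that in all other cells with an interval clear of 1, at least 100 UMIs in all and 20 CPM in the higher of both sums.

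The 7 genes together summed to 660 CPM in cluster 3 and 653 in cluster 5, and to 541 in cluster 2, 471 in cluster 6, 422 in cluster 1 and 408 in cluster 4. CCN1 alone gave the larger part of each of these sums, and of the members' sums further below. The sums are therefore no even measure of the 7 genes. F3 and NUAK2 were called higher in cluster 3, CCN2 higher in cluster 5, F3 lower in cluster 1 and AXL lower in cluster 4. No member was called in clusters 2 and 6. ANKRD1 was too low to be compared in any cluster, and the members compared were 4 of 7 in clusters 1, 2, 4 and 6 and 5 of 7 in clusters 3 and 5. The fifth gene passed the minimum only through the cluster where it was high (NUAK2 in cluster 3, CCN2 in cluster 5), so its call there gives no support.

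CCN1 ran from 218 CPM in cluster 4 to 387 in cluster 5. It was at 248 CPM in cluster 1, 272 in cluster 2, 365 in cluster 3 and 280 in cluster 6. Against all other cells it was 1.38-fold higher in cluster 3 (1.29 to 1.47) and 1.39-fold higher in cluster 5 (1.27 to 1.52), and its ratio was 0.731 in cluster 4 (0.667 to 0.799). These intervals were clear of 1, and the ratios themselves stayed under 1.5-fold. Clusters 5 and 3 did not differ from each other beyond counting error.

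AXL stood at 140 CPM in cluster 2, 138 in cluster 3, 132 in cluster 5, 97.4 in cluster 6, 86.2 in cluster 1 and 74.2 in cluster 4. The first 3 were alike within counting error, and so were clusters 1 and 4. In cluster 4 the ratio to all other cells was 0.612 (0.523 to 0.712), a call, and in cluster 1 it was 0.693 (0.618 to 0.776), short of one. With 1000 UMIs per cell the ratio in cluster 4 was 0.741 and no longer a call.

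F3 had the widest spread of the 4 most abundant members. It was at 63.3 CPM in cluster 3, 56.8 in cluster 6, 53.8 in cluster 5, 42.0 in cluster 2, 33.3 in cluster 4 and 25.4 in cluster 1. The ratio to all other cells was 1.75 in cluster 3 (1.49 to 2.06) and 0.530 in cluster 1 (0.429 to 0.649). Cluster 3 lay 2.49-fold above cluster 1 (1.98 to 3.15), and no neighbours in the order differed beyond counting error.

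AMOTL2 was at 54.8 CPM in cluster 2, 51.3 in cluster 4, 48.3 in cluster 3, 36.5 in cluster 1, 35.9 in cluster 5 and 24.3 in cluster 6, where it rests on 6 UMIs. No cluster differed by 1.5-fold with an interval clear of 1. In cluster 4 its ratio was 1.14 (0.935 to 1.38).

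CCN2 was at 27.7 CPM in cluster 5 (19.5 to 38.1), 17.7 in cluster 2, 16.4 in cluster 3, 12.0 in cluster 4, 8.55 in cluster 1 and 4.06 in cluster 6, on 1 UMI. The ratio in cluster 5 was 2.04 (1.40 to 2.90) on 37 UMIs, and 1.499 with 1000 UMIs per cell, where the gene was no longer called. NUAK2 was at 20.3 CPM in cluster 3 and 10.8 to 16.8 in clusters 1, 2, 4 and 5, with a ratio of 1.51 in cluster 3 (1.13 to 2.00). Without the 8% of cells with most UMIs that ratio was 1.38 and no call. ANKRD1 had 29 of its 68 UMIs in cluster 3, at 8.20 CPM against 2.99 in all other cells, a ratio of 2.74 (1.64 to 4.55) below the minimum. Also below the minimum, and so not compared, were lower values of CCN2 and NUAK2. The ratio was 0.504 (0.347 to 0.715) for CCN2 in cluster 1 and 0.656 (0.470 to 0.900) for NUAK2 in cluster 2.

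**Figure D2:**
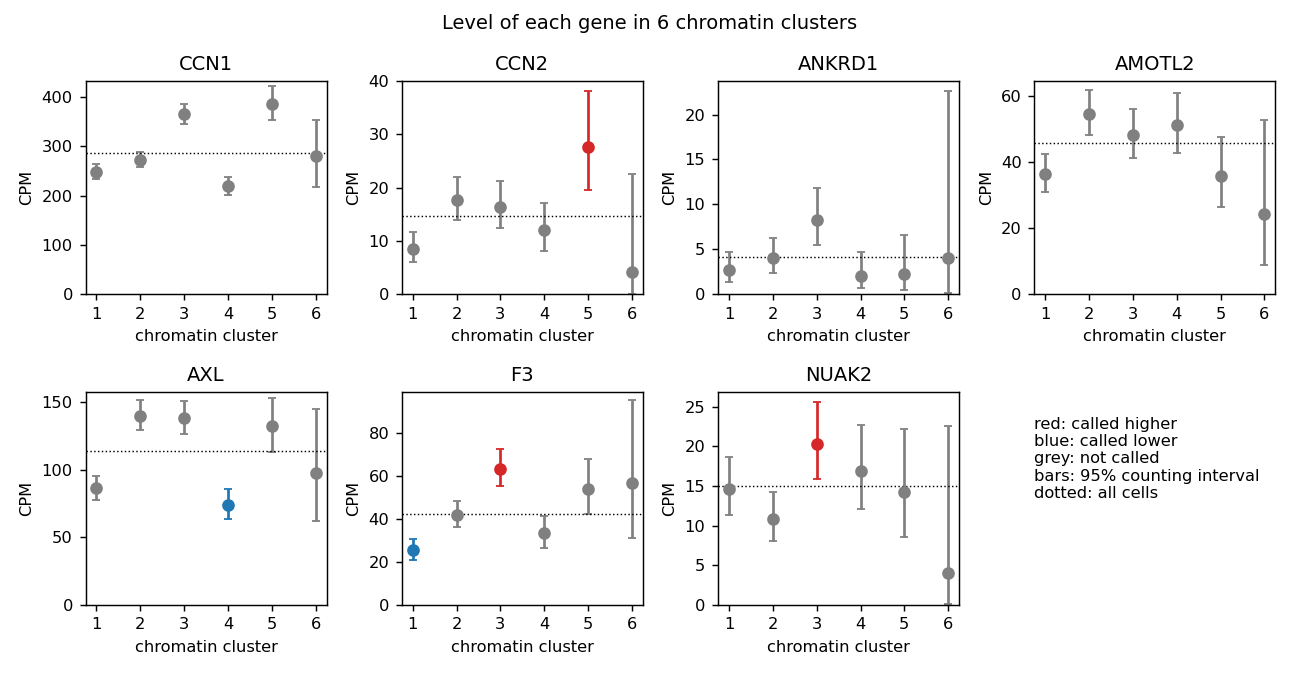
Level of each gene (CPM, linear axis from 0) in 6 chromatin clusters, with 95% counting intervals, calls in colour and the level over all cells as a dotted line. F3 stands at 63.3 in cluster 3 and 25.4 in cluster 1, and AXL at 74.2 in cluster 4.

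The share of all compared genes called gives the scale for these counts. Called higher were 1.78% of genes in cluster 1, 3.26% in cluster 2, 1.91% in cluster 3, 2.41% in cluster 4, 4.07% in cluster 5 and 2.24% in cluster 6. Called lower were 2.66%, 2.59%, 2.47%, 3.33%, 2.92% and 1.2%, in the same order. Over the 4 members compared in every cluster (CCN1, AMOTL2, AXL and F3), the median log2 ratio was -0.48 in cluster 1, 0.18 in cluster 2, 0.41 in cluster 3, -0.42 in cluster 4, 0.31 in cluster 5 and -0.13 in cluster 6. The same median over the 6608 genes compared in every cluster lay between -0.06 and 0.04. In cluster 3, 2 of 5 members and 1 of 4 or 5 in clusters 1, 4 and 5 were called, counts too small to read more from.

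The clusters differed in other ways too. Cluster 3 had the highest summed mesothelial markers, 12329 CPM against 9049 to 10089 elsewhere, and the highest fibroblast markers, 358 CPM against 180 to 275. Over all cells, the mesothelial sum is mostly KRT18, KRT8 and KRT19. The fibroblast and smooth muscle sum is mostly TAGLN and COL1A1, at 119 and 108 CPM over all cells, while COL1A2 had 0 UMIs and DCN 3. Cluster 1 had the lowest sum of 25 G2/M genes, 1566 CPM against 1907 to 2546. Cluster 6 had a median of 8176 peak counts, against 3700 to 4352. Their part in the members' values was not tested.

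The clusters themselves were not firm. Another seed of the decomposition gave an adjusted Rand index of 0.656 with them (1 is identity), peak counts in place of presence at 0.779 and a finer resolution of 1.0 at 0.464. Without scaling each cell to unit length the index was 0.241. Of 13 alternatives, of which the lower floor cannot end a call, F3 stayed called in 12 for cluster 3 and in 11 for cluster 1, and AXL in 10 for cluster 4.

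The other genes of the programme are given as values, to be read beside the shares of all genes above. Of 16 further YAP/TEAD targets, 13 were compared in clusters 1 to 5 and 14 in cluster 6. NT5E, the ectonucleotidase CD73, was higher in cluster 2 (51.0 CPM against 24.2, ratio 2.11) and lower in cluster 4 (ratio 0.418). IGFBP3, which binds insulin-like growth factors, was 2.15-fold higher in cluster 3 and CCDC80 1.75-fold. Clusters 1, 5 and 6 had 0 calls in this list. Of 20 Hippo and TEAD factors, 15 were compared and only VGLL3, a TEAD cofactor, was called, at a ratio of 0.623 in cluster 2.

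Genes that report MAPK signalling were called in 3 clusters. Of 13 genes, 7 were compared in cluster 2, where SPRED2, ETV5 and PHLDA1 were higher (ratios 1.64, 1.68 and 2.14). SPRED2 and ETV5 lay at 19.5 and 17.1 CPM over all cells and passed the minimum only through that cluster. In cluster 3, 6 were compared, with SPRED2 and PHLDA1 lower (0.536 and 0.663). There SPRED2 passed the minimum only through the other cells, where it was higher, so its call gives no support. DUSP4, a phosphatase of ERK, was at 39.6 CPM in cluster 5 against 9.57 elsewhere, 4.14-fold (2.96 to 5.70), and passed the minimum only through that cluster. Among 15 relatives and partners of the members, which include GAS6, the AXL ligand, and NUAK1, 1 or 2 were compared and 0 were called. Of the G2/M genes, 5 of 24 were lower in cluster 1, among them NDC80, CDC20, ANLN and AURKB (ratios 0.586 to 0.639), and PLK1 was lower in cluster 6 on 1 UMI.

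Cells that held several members were about as common as independent detection gives. With 1000 UMIs per cell, 5424 cells held 0 of the 7, 2917 held 1, 533 held 2 and 39 held 3. Multiplying the shares gave 5394, 2976, 505 and 36.4 cells. The 21 pairs had a median ratio of observed to expected cells of 1.02, and 12 were above 1. None had an interval clear of 1, and the median over all gene pairs with at least 10 expected cells was 0.9996.

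CCN1 and AXL were found together in 230 cells against 217.5 expected, a ratio of 1.06 (0.925 to 1.203). CCN1 with AMOTL2 gave 1.00, with F3 1.02, with CCN2 1.19 and with NUAK2 1.24. AMOTL2 with AXL gave 1.16 (0.852 to 1.54), AXL with F3 1.13 and AXL with NUAK2 1.25. CCN2 with AXL gave 0.726 and AMOTL2 with F3 0.936. At this depth, an excess or a deficit of the size these intervals span could not be seen, and the 11 pairs under 10 expected cells, 1 of which had 0 cells, say little.

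**Figure D3:**
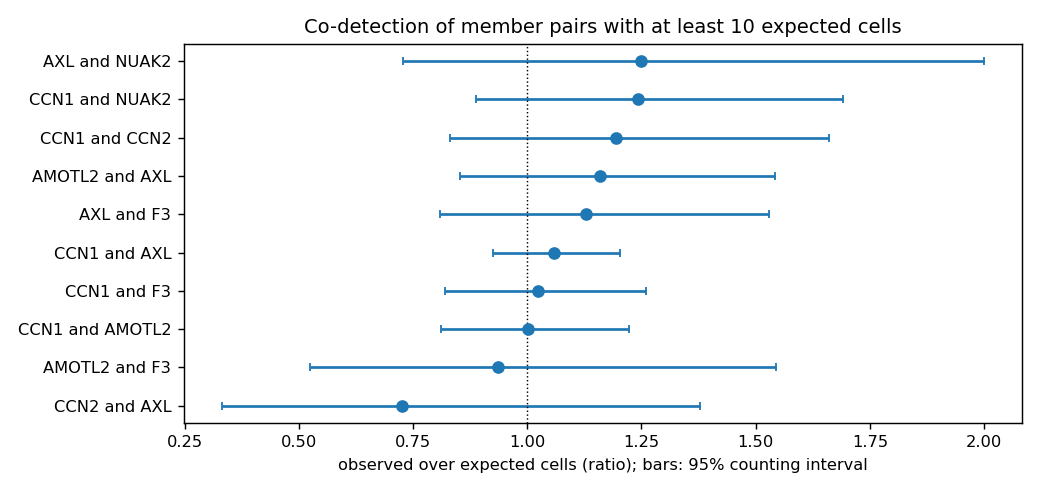
Ratio of observed to expected cells with both genes (x axis) for the 10 pairs with at least 10 expected cells, with 95% counting intervals and a dotted line at 1. Every interval crosses 1, from AXL with NUAK2 at 1.25 to CCN2 with AXL at 0.726.

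Ranked by the same ratio, the genes most like each member were other genes. For CCN1 these were SPACA6 (1.42), KCTD10 (1.33) and BMP4 (1.33), for AMOTL2 PHLDB1 (2.04), ATN1 (1.97) and RIC8B (1.96), for AXL SCAMP4 (1.98), NSUN6 (1.79) and ERI1 (1.74), and for F3 HEATR1 (2.10), MRPL2 (1.98) and CHAF1A (1.96). Each heads a ranking of 5260 to 6063 genes over the 8913 cells, so high values at the top are a matter of rank. Among the members, AXL ranked 1282, F3 2125 and AMOTL2 2867 of 6063 for CCN1, and AMOTL2 ranked 768, F3 1030 and CCN1 1918 of 6063 for AXL. For AMOTL2, F3 ranked 3693 of 5662, and for F3, AMOTL2 ranked 3422 of 5260. NUAK2, CCN2 and ANKRD1 were found in fewer than 200 cells and were not ranked.

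Cells were also split by transcripts of the cell cycle. The members' sum was 498 CPM in cells with 0 G2/M UMIs per 1000, 506 with 1 to 2 and 531 with 3 or more. F3 ran at 33.4, 39.9 and 50.02 CPM over these ranges, a ratio of 1.496 (1.13 to 2.00) between the last and the first, just under the threshold. CCN1 held 283, 284 and 281 CPM. Of 4 members compared 0 were called, beside 5.41% of all genes.

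With 1 or more UMIs of 13 MAPK output genes per 1000, the members summed to 519 CPM, against 507 with 0, a ratio of 1.02 (0.963 to 1.09). No member of 4 compared was called, beside 0.47% of all genes. By share of mitochondrial UMIs the sum was 522 CPM at 15 to 20%, 524 at 10 to 15% and 524 at up to 10%. Mitochondrial UMIs count in CPM, so the CPM of other genes rises as that share falls. From over 15% to at most 10%, the median log2 ratio was 0.13 over all genes compared and 0.12 over the 5 members compared. NUAK2 was the only member called of 5, at 21.9 CPM in the cells at up to 10% against 13.5 at 15 to 20%, a ratio of 1.62 (1.14 to 2.29), beside 2.53% of all genes. It passed the minimum only through the cells where it was high, and its ratio still holds the shift over all genes.

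**Figure D4:**
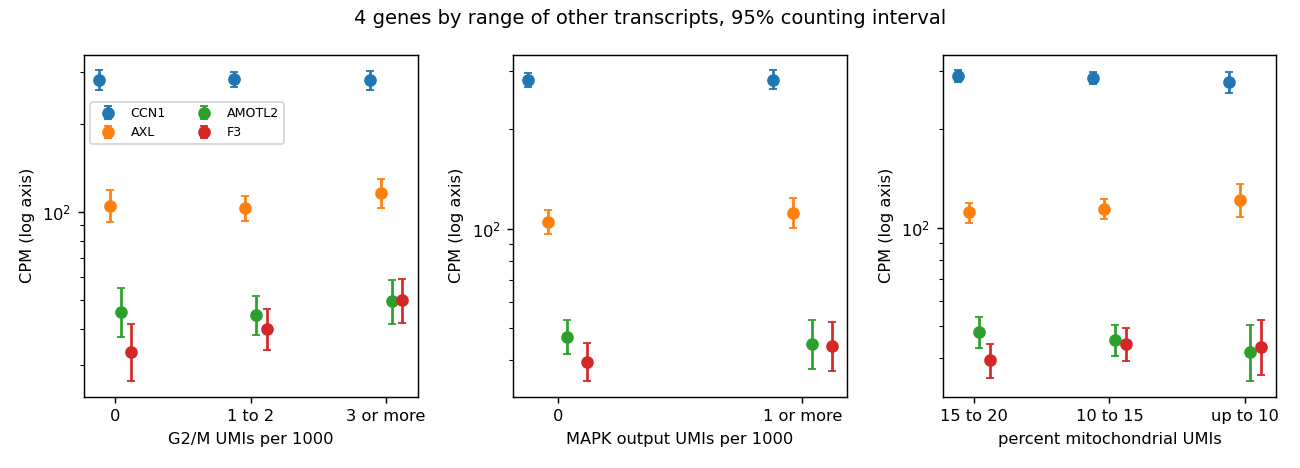
Level of CCN1, AXL, AMOTL2 and F3 (CPM, log axis) by G2/M UMIs, MAPK output UMIs and mitochondrial share, with 95% counting intervals. F3 goes from 33.4 to 50.02 with G2/M UMIs, and CCN1 stays between 281 and 284.

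In all, 11 peaks lay within 1000 bases of the stretch of start sites that the deposited gene list gives for each member: 1 for CCN1, ANKRD1, AMOTL2, F3 and NUAK2, 2 for CCN2 and 4 for AXL. The AXL stretch runs from its first start to a later one, and the peaks between them count, so such a peak need not lie near either start. The positions below are those of the deposited peaks, whose notes name GRCh38.p10. The AXL peak at chr19:41225717-41226605 was the most open, in 10.7% of cells (10.0 to 11.3), and the CCN1 peak at chr1:85580271-85581158 was open in 713 cells. The AXL peak at chr19:41220073-41220897 was least open, in 1.95%.

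Cells with the AXL peak at chr19:41223346-41224215 held AXL at 150 CPM, against 112 in cells without it, a ratio of 1.33 (1.09 to 1.61). For the peak at chr19:41225717-41226605 the values were 133 and 111 CPM (1.19, 1.05 to 1.35). For the other 9 peaks the interval crossed 1, CCN1 included (1.01, 0.916 to 1.11). Cells with the first AXL peak had a median of 7584 peak counts, against 3944 without it, and the part of depth was not tested.

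In 7 clusters drawn from RNA of genes other than the members, 6 of 77 comparisons of these peaks passed 1.5-fold with an interval clear of 1, or 7.79%, beside 7.74% of comparisons over all peaks with at least 300 counts. The share was that of all peaks, so nothing is read from the 6. They were 5 comparisons of AXL peaks, with ratios of 1.88 in RNA cluster 3, 1.68 in RNA cluster 4, 0.189 in RNA cluster 5 and 0.398 and 0.547 in RNA cluster 6, and the AMOTL2 peak at 0.643 in RNA cluster 5. In the chromatin clusters, which used these peaks, the AXL peak at chr19:41223346-41224215 was at 6.77 counts per 1000000 in cluster 1, 16.1 in cluster 2, 18.0 in cluster 3 and 12.0 in cluster 4, as a description.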

How the data were processed

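RNA and chromatin accessibility of 1 pool of cells were deposited by the authors as whole-number counts of UMIs per gene and of accessibility counts per peak, in 1 matrix of 651860 barcodes with 54494965 UMIs and 117898281 peak counts. Per the file headers the matrix came from Cell Ranger ARC 2.0.0. The submitters' processing notes name Cell Ranger 2.0.0, ArchR 1.0.3, MACS2 and GRCh38.p10, with no roles, and no source used here says how peaks were called. Since 87.9% of peak entries were even numbers, peak counts were divided by 2 before their intervals were computed.

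Levels are CPM, a gene's UMIs scaled to 1000000 UMIs of all genes. Intervals are exact Poisson for levels, exact binomial for shares (Clopper-Pearson) and ratios, at 95%. Cells were thinned to 1000 UMIs without replacement (numpy 2.4.6). Chromatin clusters used 182179 peaks in at least 20 cells, presence or absence, term frequency by inverse document frequency, 30 components of which 1 followed depth (r over 0.75) and was dropped, unit length per cell, 15 neighbours and Leiden resolution 0.5. Scaling to unit length was chosen after seeing the files, since plain scaling gave clusters that followed depth; many weightings, scalings and seeds were looked at, judged by cluster sizes (also beside those of an earlier analysis of these data), depth and likeness between runs, not by the members' values. RNA clusters used 2000 variable genes without the members. Doublets were not called or removed; results were repeated without the 8% of cells with most UMIs. The comparison was tested on simulated sums that held counting error only, which is the error its intervals assume. That test does not bear on how firm the clusters are.

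Genes are named by this rule: all 7 members, genes of 5 lists (other YAP/TEAD targets, Hippo and TEAD factors, MAPK output, relatives and partners, G2/M) if called in a chromatin cluster, at most 4 per list, and the 3 genes most like each member found in 200 cells. Members and lists were chosen with earlier results of these data known. All 3 libraries come from 1 pool, so there are no replicates. Alternatives were other cell filters, scalings (edgeR TMM, median of ratios), floors, resolutions and seeds.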

Additional observations from a re-analysis of the deposited data

How the results depend on the processing

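The counts of members called (1, 0, 2, 1, 1 and 0 in clusters 1 to 6) moved with several choices. Cells at most 10% mitochondrial (1592 cells) gave 0 for clusters 1, 3, 4 and 5; 2 clusters were drawn there, with a Jaccard overlap with the main ones of 0.0134 to 0.336, and F3 in cluster 1 had a log2 ratio of -0.26 and CCN2 in cluster 5 reversed to -0.12. At least 2000 UMIs and peak counts gave 2, 4 and 2 for clusters 1, 5 and 6, the last from the cluster matched to cluster 3 as well (overlap 0.0277). A floor of 10 UMIs gave 2, 1 and 3 for clusters 1, 2 and 3, and thinning to 1000 UMIs gave 2, 0, 0 and 1 for clusters 1, 4, 5 and 6. Resolution 1.0 gave 1 and 0 for clusters 3 and 4, and resolution 0.3 gave 0 for cluster 5, from 3149 cells (overlap 0.193). Without the 8% of cells with most UMIs, or without peaks within 100 kb of a member, cluster 3 gave 1. Chosen after seeing the data, an embedding not scaled per cell gave 0, 2 and 3 for clusters 1, 4 and 5, with F3 in cluster 1 reversed to 0.078, and seed 1 gave 2 for cluster 5. The number of pairs with an interval clear of 1 went from 0 to 1 both with 500 UMIs per cell and without the 8% of cells with most UMIs. The cause was not tested. The other 63 values moved by no more than 1.5 times (counts, the 3 for cluster 3 among them), 0.5 of the quartile range of the pairs (medians) or the interval (the share of promoter peak comparisons). No paired analysis was possible because the pool is 1 sample with no replicates. Depth limits CCN2, NUAK2 and ANKRD1 most, with 244, 248 and 68 UMIs.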
